A study of Mus musculus with 6 samples.

Results

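The genes described are the ligands and receptors of platelet-derived growth factor (PDGF). They were chosen by gene symbol: Pdgfa, Pdgfb, Pdgfc, Pdgfd, Pdgfra, Pdgfrb and Pdgfrl. Of these 7 genes, 6 were among the 16000 genes of the tables, and 5 held enough reads to be tested among 11972 genes. Pdgfb was below the filter on low counts, and Pdgfd was not analysed here. The study sequenced polyadenylated RNA of NIH3T3, a long-established line of mouse embryonic fibroblasts, with a stranded mRNA library kit. The libraries fall into 3 from RAI16 knockout (Rai16 KO) cells and 3 from wild-type (WT) cells, and cells of both genotypes were serum-starved. The sources used here give neither the lesion nor the number of clones, nor whether replicate libraries stem from separate cultures. The p-values thus cover the spread between these libraries alone, which may be technical.

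PDGF ligands are secreted dimers built from A, B, C or D chains. They bring together receptor tyrosine kinases of the alpha and beta type, which then recruit adaptor proteins, PI3-kinase, phospholipase C gamma and the Ras and MAP kinase relay. The A and C chains act mainly through the alpha receptor, the B chain binds both receptors, and the C and D chains are secreted with a CUB domain that proteases must remove. PDGF is a classical mitogen of connective-tissue cells, and in quiescent fibroblasts the alpha receptor is found on the primary cilium, which forms when serum is withdrawn.

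The promoters of the ligand gene that rose (Pdgfc), of the ligand gene that did not pass the test (Pdgfa, with 2 annotated starts) and of the most abundant receptor gene (Pdgfra) are shown here so that their letters can be compared. Each is the 250 bases before an annotated start, from RefSeq on GRCm38.p6, read 5′ to 3′ on the strand of the gene. Capitals mark matches to any of 7 motifs searched on both strands: the GC box GGGCGG, the EGR motif GCGNGGGCG, the AP-1 motif TGANTCA, the TATA motif TATAAA, the GLI motif GACCACCCA, the CCAAT box and the CArG box, to which serum response factor binds.
Pdgfc, plus strand, chr3:81036166-81036415: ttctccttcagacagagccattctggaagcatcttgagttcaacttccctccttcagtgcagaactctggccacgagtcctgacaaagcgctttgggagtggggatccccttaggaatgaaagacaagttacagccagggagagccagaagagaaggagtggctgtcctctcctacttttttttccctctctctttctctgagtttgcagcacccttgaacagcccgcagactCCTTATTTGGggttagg
Pdgfa, minus strand, chr5:138994282-138994531: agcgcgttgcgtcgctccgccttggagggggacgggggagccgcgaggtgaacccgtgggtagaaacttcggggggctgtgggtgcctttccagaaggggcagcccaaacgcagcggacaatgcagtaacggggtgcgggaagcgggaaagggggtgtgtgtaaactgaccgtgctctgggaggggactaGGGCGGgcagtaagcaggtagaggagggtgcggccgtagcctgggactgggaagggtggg
Pdgfa, minus strand, chr5:138994945-138995194: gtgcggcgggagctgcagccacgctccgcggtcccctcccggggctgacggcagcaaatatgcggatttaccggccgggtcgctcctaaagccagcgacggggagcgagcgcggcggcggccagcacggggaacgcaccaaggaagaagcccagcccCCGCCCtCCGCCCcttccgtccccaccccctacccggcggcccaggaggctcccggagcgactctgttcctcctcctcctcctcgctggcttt
Pdgfra, plus strand, chr5:75152001-75152250: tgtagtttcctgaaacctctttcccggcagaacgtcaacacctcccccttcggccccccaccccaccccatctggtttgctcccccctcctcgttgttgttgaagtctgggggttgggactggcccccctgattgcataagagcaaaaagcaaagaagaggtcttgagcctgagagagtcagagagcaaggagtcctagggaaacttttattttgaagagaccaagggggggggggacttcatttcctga

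The Pdgfc window held a single match, a CArG box from position -17 to -8 before the start. A CArG box was present in 1.47% of 32851 windows of the same length over all annotated starts. Both Pdgfa windows held the GC box, found in 32.7% of all windows, and the Pdgfra window held none of the 7 motifs. G and C made up 50.8% of the Pdgfc window, 66.4% and 72.4% of the Pdgfa windows and 54.4% of the Pdgfra window. These matches describe letters and do not show binding.

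The libraries held from 17805417 to 18368760 counts in knockout and from 16741607 to 17482451 in WT. The targeted gene, listed as Fam160b2, had 410, 394 and 390 counts in knockout replicates 1, 2 and 3, against 440, 375 and 411 in WT replicates 1, 2 and 3. It did not differ by test (log2 fold change -0.12 ± 0.075 SE, adjusted p = 0.184, edgeR), and counts over a whole gene cannot show a small lesion. Knockout replicate 2 stood apart: its counts differed from those of knockout replicates 1 and 3 by a chi-square of 28.6 and 26.5 per degree of freedom, against 1.72 between replicates 1 and 3 and 1.90 to 2.25 between WT libraries. Fold changes below are log2 of knockout over WT from edgeR's quasi-likelihood test, with calls made at an adjusted p under 0.05 (Benjamini-Hochberg, across the 11972 genes), and are given with and without that library where it matters. By this rule 59.6% of all genes tested were called, 30.5% higher and 29.2% lower in knockout.

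Pdgfc rose about 2-fold in knockout cells, and it was the single tested PDGF gene that was higher there. Pdgfrb, the beta receptor, and Pdgfrl, a receptor-like gene, were called slightly lower. Each of these calls was lost in 6 of 14 alternative fits, mostly fits that left out a library. Pdgfa and the alpha receptor gene Pdgfra did not pass the test. Of the 5 genes tested, 1 was called higher and 2 lower, so that 3 of 5 were called where 59.6% of all genes were. The share of PDGF genes called was therefore near the background. With a single library left out, 1 was called higher in each fit and between 0 and 3 were called lower: 0 without knockout replicate 1 or any WT replicate, 1 without knockout replicate 3 and 3 without knockout replicate 2. Pdgfb transcripts were rare in every library and more frequent in knockout. The data come from whole cultures, where fewer cells that express a gene and less RNA per cell cannot be told apart.

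**Figure D1:**
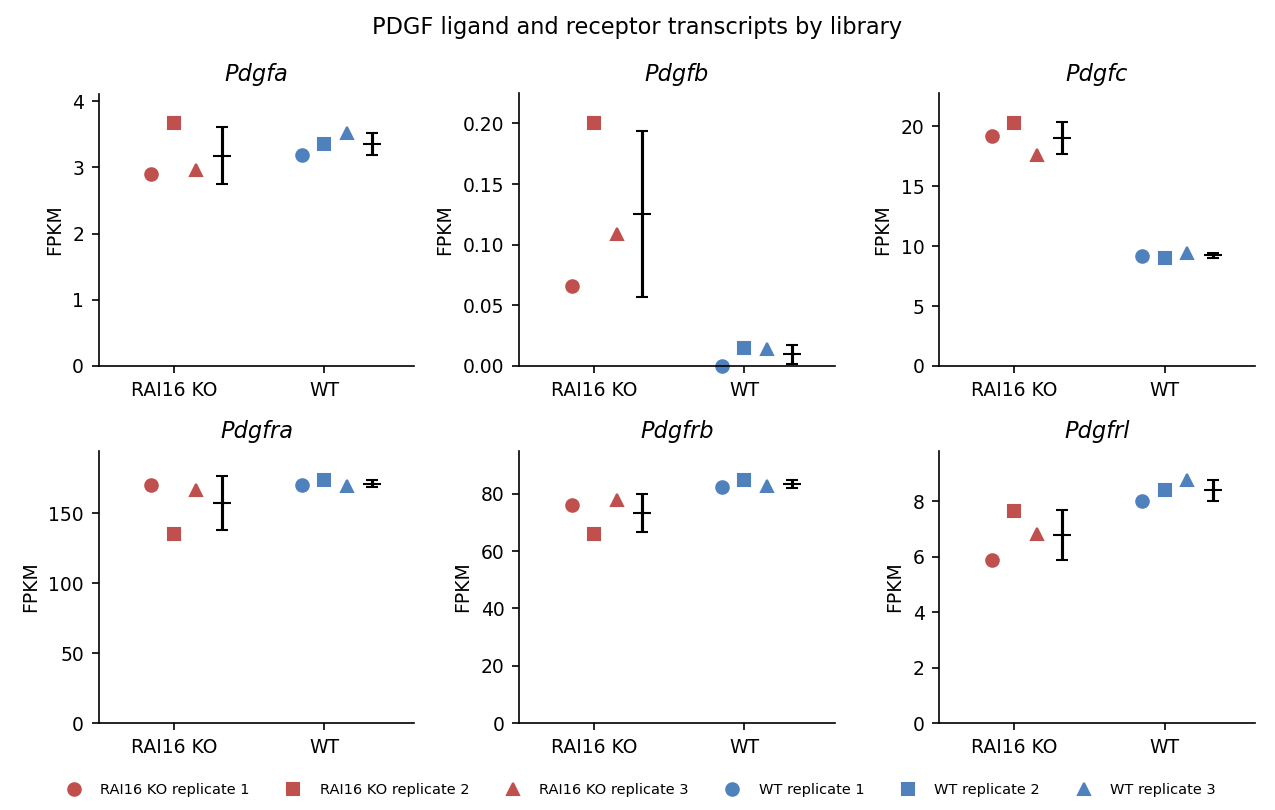
FPKM of the 6 listed PDGF genes in each library (RAI16 KO left, WT right, symbols by replicate number, bars with mean and SD, n = 3 each); each panel has its own linear axis from 0. Pdgfc sits between 17.6 and 20.3 FPKM in knockout and between 9.03 and 9.46 in WT, while knockout replicate 2 (square) is the lowest library for Pdgfra and Pdgfrb and the highest knockout library for Pdgfa, Pdgfb, Pdgfc and Pdgfrl.

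Levels of different genes are compared in FPKM, the authors' count per length and library total. In both groups the order from high to low was Pdgfra, Pdgfrb, Pdgfc, Pdgfrl, Pdgfa and Pdgfb, and the ranges of neighbours in this order did not overlap within a group. The closest pair was Pdgfc and Pdgfrl in WT, where Pdgfc exceeded Pdgfrl by 0.598 to 1.20 FPKM within a library, against 10.8 to 13.3 FPKM in knockout. The receptors were among the most abundant transcripts of these cells. Pdgfra exceeded 97.4% to 98.2% of the listed genes in knockout libraries and 98.2% to 98.3% in WT libraries. Pdgfrb exceeded 93.8% to 95.5% in knockout and 95.9% to 96.1% in WT.

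Among the ligands, Pdgfc encodes the PDGF-C chain, a ligand of the alpha receptor. Its count was 1264, 1321 and 1123 in knockout replicates 1, 2 and 3, and 573, 541 and 592 in WT replicates 1, 2 and 3. In FPKM it stood at 19.2, 20.3 and 17.6 in the knockout libraries and at 9.20, 9.03 and 9.46 in the WT libraries. Every knockout library lay above every WT library, and the gap between the groups was wider than the spread within either. The mean was 19.0 ± 1.35 FPKM in knockout and 9.23 ± 0.217 FPKM in WT (SD, n = 3 each). From the counts, edgeR gave a 2.05-fold difference, or 1.03 ± 0.067 in log2 (SE, 95% interval 0.88 to 1.19), with an adjusted p of 3.04e-06. Rises of at least 2-fold were called in 4.32% of all genes tested. The size of the Pdgfc change was at percentile 89.5 of all genes tested. Without knockout replicate 2 the log2 fold change was 0.99 ± 0.058.

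Pdgfa encodes the PDGF-A chain, whose homodimer binds the alpha receptor alone. It reached 2.90, 3.68 and 2.96 FPKM in knockout replicates 1, 2 and 3, and 3.19, 3.35 and 3.51 FPKM in WT replicates 1, 2 and 3. The groups overlapped: knockout replicate 2 was the highest of all libraries, and the other knockout libraries were the lowest. The log2 fold change was -0.09 ± 0.10 (SE; 95% interval -0.32 to 0.14), with an adjusted p of 0.471 in edgeR. Without knockout replicate 2 the gene was called lower, at -0.20 ± 0.083 and an adjusted p of 0.0276, in a fit where 71.1% of genes were called and 35.1% were called lower. In CPM, which is each count over the library total as scaled by edgeR, knockout replicate 2 exceeded the mean of the other knockout libraries by 24.3% for Pdgfa, and the median size of this deviation over all genes tested was 12.9%.

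Pdgfb encodes the PDGF-B chain, made in the body largely by platelets and endothelial cells. It had 5, 15 and 8 counts in knockout replicates 1, 2 and 3, and 0, 1 and 1 count in WT replicates 1, 2 and 3. Every knockout library held more than any WT library, but all values were near the limit of detection. Knockout replicate 2, which held the most, was also the highest library for several markers of vascular and muscle cells, chosen after their values were seen. In knockout replicates 1, 2 and 3 the muscle gene Des had 8, 82 and 3 counts, the endothelial gene Cdh5 22, 51 and 23, Kdr 0, 7 and 0, and the pericyte gene Rgs5 0, 12 and 0. In WT replicates 1, 2 and 3 they had 9, 12 and 10 for Des, 2, 6 and 3 for Cdh5, 0, 0 and 0 for Kdr and 11, 4 and 9 for Rgs5. Some other markers of such cells were not highest in that library. In knockout replicates 1, 2 and 3 Cspg4 had 4519, 3448 and 4369 counts, Vwf 53, 46 and 54, and Mcam 16, 17 and 20. The part of such cells in the Pdgfb counts was not tested. The library at 0 allows up to 3 counts, or 0.173 CPM. The sums were 28 counts in knockout and 2 in WT, a ratio of 13.2 with an exact binomial 95% interval from 3.33 to 114 that covers counting error only. In FPKM these counts were 0.0661, 0.201 and 0.109 in knockout and 0, 0.0145 and 0.0139 in WT. With no filter on low counts edgeR called Pdgfb higher in knockout (adjusted p = 0.00677), as it did 23.2% of the 16000 genes in that fit.

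Summed ligand transcripts, and the part of them held by Pdgfc, were higher in every knockout library than in any WT library. These quantities, and the ratio of Pdgfc to Pdgfa below, contain Pdgfc and are not separate from its rise. The summed FPKM of Pdgfa, Pdgfb and Pdgfc was 22.2, 24.2 and 20.7 in knockout replicates 1, 2 and 3, and 12.4, 12.4 and 13.0 in WT replicates 1, 2 and 3. Pdgfc made up 86.6%, 84.0% and 85.2% of this sum in knockout and 74.3%, 72.8% and 72.8% in WT. Among these 3 genes Pdgfc had the highest FPKM in every library of both groups. The mean share of Pdgfc was 85.3% ± 1.33 in knockout and 73.3% ± 0.818 in WT (SD, n = 3 each; two-sided exact permutation p = 0.1, the smallest that 3 against 3 libraries allow). Adjusted over the 9 sums, shares and ratios compared, this p was 0.129. The ratio of Pdgfc to Pdgfa was 6.63, 5.52 and 5.96 in knockout and 2.88, 2.69 and 2.69 in WT.

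**Figure D2:**
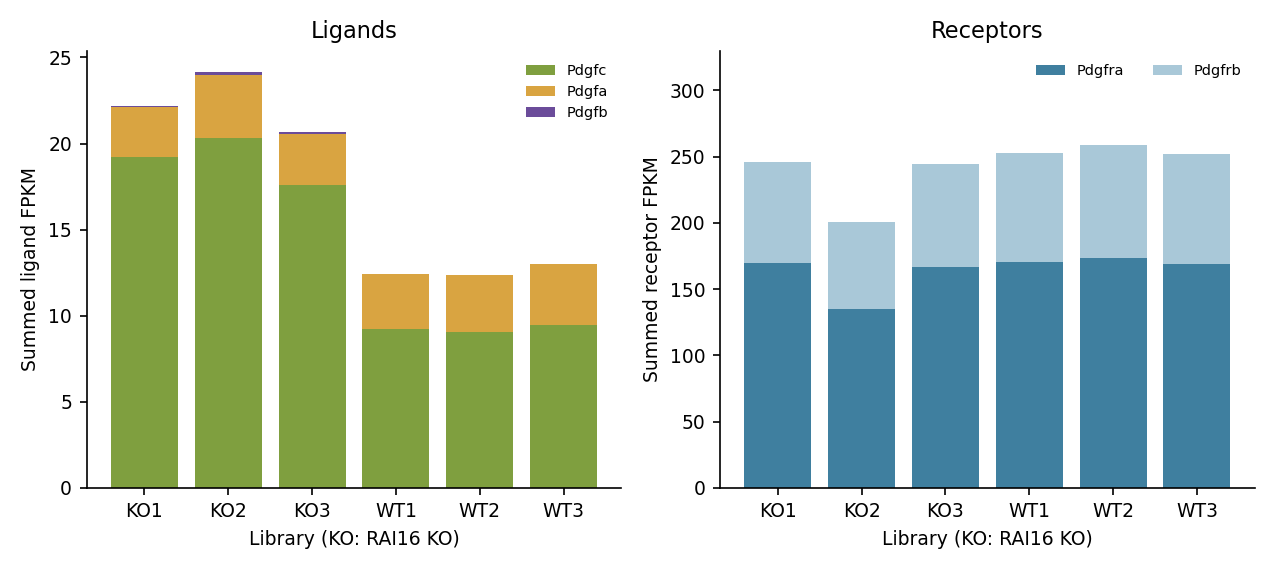
Summed FPKM of the ligand genes (left) and of the signalling receptor genes (right) in each library, stacked by gene, with KO for RAI16 KO. Ligand sums reach 20.7 to 24.2 FPKM in knockout and 12.4 to 13.0 FPKM in WT, mostly through Pdgfc, and the lowest receptor sum is the 201 FPKM of knockout replicate 2.

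Of the receptors, Pdgfra encodes the alpha receptor, which answers to A, B and C chains. Its level was 170.0, 135 and 167 FPKM in knockout replicates 1, 2 and 3, and 170.1, 174 and 169 FPKM in WT replicates 1, 2 and 3. Knockout replicates 1 and 3 lay next to the WT libraries, and replicate 2 lay well below them. In CPM, where scaling differs slightly, the groups did not overlap, as was true of 67.6% of all genes tested. The log2 fold change was -0.13 ± 0.089 (SE; 95% interval -0.33 to 0.07, adjusted p = 0.229, edgeR), and without knockout replicate 2 it was -0.03 ± 0.025 with an adjusted p of 0.301.

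Pdgfrb encodes the beta receptor, which binds B and D chains. Its level was 76.2, 65.8 and 77.9 FPKM in knockout replicates 1, 2 and 3, and 82.4, 84.8 and 82.8 FPKM in WT replicates 1, 2 and 3. All knockout libraries were below all WT libraries, with replicate 2 lowest. The mean was 73.3 ± 6.50 FPKM in knockout and 83.3 ± 1.27 FPKM in WT (SD, n = 3 each). From the counts, edgeR put the log2 fold change at -0.20 ± 0.074 (SE), with an adjusted p of 0.0449. This call lay close to the threshold and was lost in 6 of 14 alternatives, with adjusted p between 2.26e-04 and 0.132. Among these were the fits without knockout replicate 1 (-0.22, adjusted p = 0.0523, edgeR) and without WT replicate 1, 2 or 3 (-0.20, -0.19 and -0.20, adjusted p = 0.103, 0.132 and 0.109). Without knockout replicate 2 the change was smaller, -0.12 ± 0.029, and its adjusted p was 2.26e-04.

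Pdgfrl encodes a protein that resembles the extracellular part of the receptors and lacks a kinase. Its level was 5.88, 7.66 and 6.83 FPKM in knockout replicates 1, 2 and 3, from 167, 215 and 188 counts. In WT replicates 1, 2 and 3 it was 8.003, 8.43 and 8.77 FPKM, from 215, 218 and 237 counts. The groups did not overlap, although knockout replicate 2 came close to the lowest WT library. The log2 fold change was -0.32 ± 0.11 (SE; adjusted p = 0.0342, edgeR). This call was lost in 6 of 14 alternatives, with adjusted p between 0.00114 and 0.110. Among these were the fits without knockout replicate 1 or 3 (-0.22 and -0.33, adjusted p = 0.108 and 0.0674, edgeR) and without WT replicate 1, 2 or 3 (-0.35, -0.32 and -0.29, adjusted p = 0.0562, 0.0862 and 0.110). Without knockout replicate 2 the change was -0.41 ± 0.11.

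**Figure D3:**
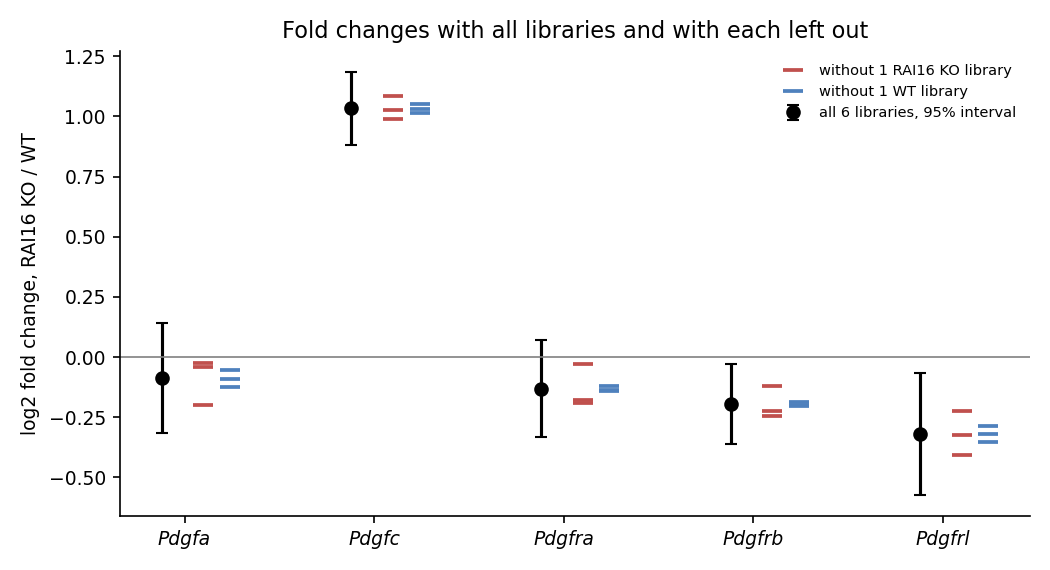
Log2 fold change (RAI16 KO over WT) of the 5 tested PDGF genes with all 6 libraries (points with 95% interval) and with each knockout or WT library left out in turn (dashes). Pdgfc stays between 0.99 and 1.08 whichever library is left out, and the 4 other genes stay below 0, where Pdgfa comes to -0.026 without knockout replicate 1 and Pdgfra to -0.0285 without knockout replicate 2.

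The balance between the signalling receptors moved little. Pdgfra made up 69.1%, 67.2% and 68.2% of the summed Pdgfra and Pdgfrb FPKM in knockout replicates 1, 2 and 3, and 67.4%, 67.2% and 67.2% in WT replicates 1, 2 and 3. The groups overlapped, and the mean share was 68.2% ± 0.904 in knockout and 67.3% ± 0.110 in WT (SD, n = 3 each; exact permutation p = 0.2). The summed receptor FPKM exceeded the summed ligand FPKM in every library. The factor was 11.1, 8.31 and 11.8 in knockout and 20.4, 20.9 and 19.4 in WT. Its ligand sum contains Pdgfc, so this ratio is not separate from the Pdgfc rise. The groups did not overlap in this ratio (10.4 ± 1.85 in knockout and 20.2 ± 0.739 in WT, SD, n = 3 each; exact permutation p = 0.1, the smallest possible).

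Genes next to the members on the chromosome, by RefSeq order on GRCm38.p6, moved in several ways. Each count here is of 20 tested genes. Over all genes tested, 59.6% were called, 30.5% higher and 29.2% lower in knockout. Of the 20 tested genes around Pdgfc, 8 rose and 6 fell (median log2 fold change 0.11), and its neighbours were Glrb, a glycine receptor subunit gene (-0.71 ± 0.18), and the cathepsin gene Ctso (-0.07 ± 0.080, adjusted p = 0.446, edgeR). Around Pdgfa 0 rose and 12 fell (median -0.33). Around Pdgfrb 2 rose and 9 fell (median -0.22). The tested genes on either side of Pdgfrb were Camk2a, a calmodulin-dependent kinase gene (3.06 ± 0.50), and Csf1r, the gene of the receptor for colony-stimulating factor 1 and a relative of the PDGF receptors. Csf1r had 41, 36 and 22 counts in knockout replicates 1, 2 and 3, and 6, 4 and 10 in WT replicates 1, 2 and 3, a ratio of 4.66 (95% counting interval 2.86 to 7.96). Around Pdgfra 5 rose and 8 fell (median -0.12), and around Pdgfrl 6 rose and 3 fell (median 0.09). The neighbours of Pdgfrl were Slc7a2, a transporter gene (0.27 ± 0.13, adjusted p = 0.105, edgeR), and Mtus1 (1.604 ± 0.091). The part of neighbouring genes in the members' changes was not tested.

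Genes with the profile most like that of a member over the 6 libraries were found by the root mean square difference of centred log2 CPM, among 10328 genes that averaged 5 CPM or more. Nearest to Pdgfc were Cited2 (0.0316) and Apbb1ip (0.0361), with log2 fold changes of 1.00 ± 0.060 and 0.98 ± 0.071. Nearest to Pdgfa were Mrps30 (0.00755) and Ptcd2 (0.0139), to Pdgfrb Eml1 (0.0105) and Antxr1 (0.0136), and to Pdgfrl Tprkb (0.0293) and Mettl14 (0.0385). A difference under 0.1 from the member was shared by 108 genes for Pdgfc and by 1090 genes for Pdgfrb, so such likeness was common.

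The rest of the pathway was described by 7 lists of 134 genes, of which 121 were tested. Of these, 36 rose and 42 fell in knockout, which is 64.5% called beside 59.6% of all genes, and their median log2 fold change was -0.06 beside 0.0028 over all genes. Without knockout replicate 2, 48 rose and 51 fell.

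**Figure D4:**
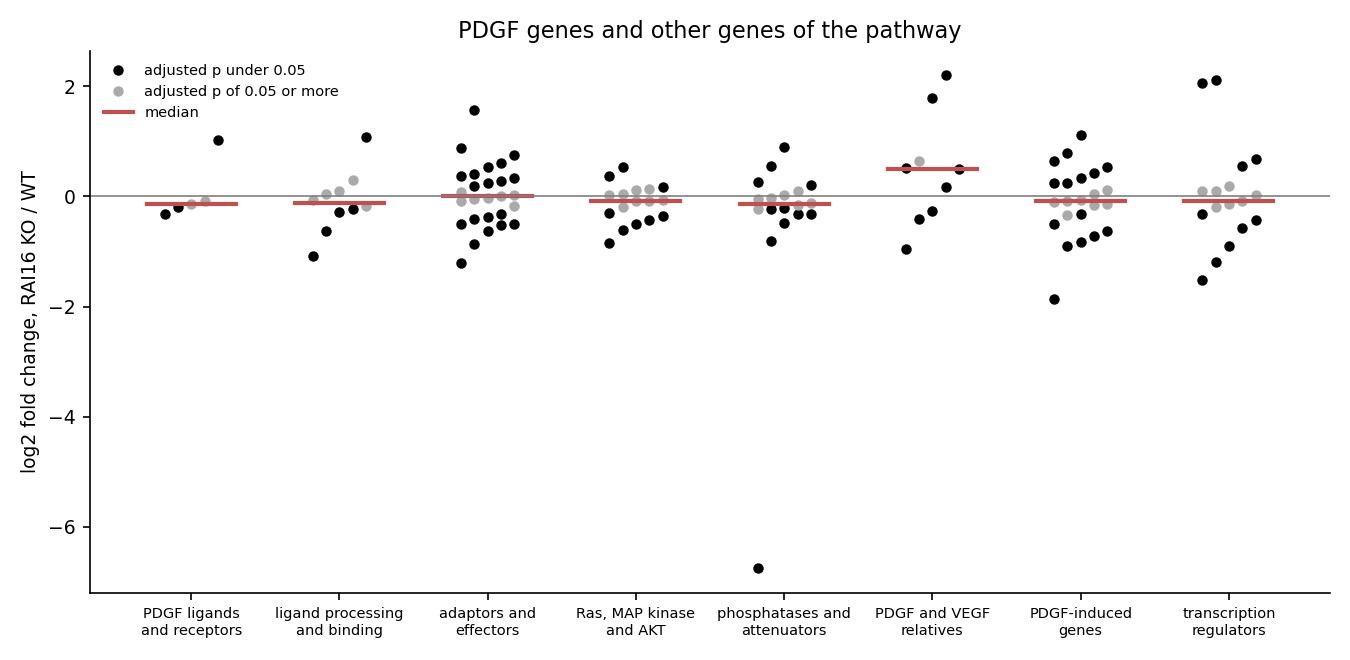
Log2 fold change (RAI16 KO over WT) of the tested PDGF genes and of each tested gene of the 7 pathway lists; black points passed an adjusted p of 0.05, grey points did not, and red lines are medians. The medians lie between -0.13 and 0.50, with called genes on both sides of 0 in every list; the lowest point is Ptprj.

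Ligand processing and binding genes counted 1 rise and 4 falls among 10 tested (median log2 fold change -0.13; 4 rises and 4 falls without knockout replicate 2). Nrp2, a neuropilin co-receptor, stood at 312 ± 61.1 CPM in knockout and 662 ± 7.71 CPM in WT (log2 fold change -1.09 ± 0.13). Plaur, the urokinase receptor gene, fell by 0.64 ± 0.075, and Furin and Pcsk7, convertases that trim precursor proteins, fell by 0.28 ± 0.085 and 0.24 ± 0.069. The rise was in Plau, encoding urokinase (1.07 ± 0.15), at 6.22 ± 0.770 CPM in knockout and 2.96 ± 0.195 CPM in WT. Plat, encoding the tissue plasminogen activator that removes the CUB domain of PDGF-C, stood at 57.8 ± 1.33 CPM in knockout and 60.8 ± 2.58 CPM in WT (adjusted p = 0.307, edgeR; SD, n = 3 each). Plau and Plat were named after their values were seen.

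Adaptors and effectors of the receptors counted 11 rises and 9 falls among 27 (median log2 fold change 0.0056). Slc9a3r1, encoding the scaffold NHERF1 that binds the receptor tail, rose to 59.9 ± 2.41 CPM in knockout, against 20.2 ± 1.81 CPM in WT (1.57 ± 0.078). Vav2, an exchange factor of small GTPases, rose by 0.89 ± 0.076. Pik3cb, a catalytic subunit of PI3-kinase, stood at 34.8 ± 1.93 CPM in knockout and 80.1 ± 3.06 CPM in WT (-1.20 ± 0.065), and Rasa1, the Ras GTPase-activating protein recruited by the beta receptor, fell by 0.87 ± 0.065.

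The Ras, MAP kinase and AKT relay counted 3 rises and 6 falls among 17 (median log2 fold change -0.08; 7 and 7 without knockout replicate 2). The protein kinase C gene Prkca fell by 0.60 ± 0.11 and the MAP kinase kinase gene Map2k1 by 0.49 ± 0.058 on the log2 scale. Hras rose by 0.53 ± 0.10.

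Phosphatases, ubiquitin ligases and other attenuators counted 4 rises and 7 falls among 18 (median log2 fold change -0.13; 6 and 8 without knockout replicate 2). Acp1, a low-molecular-weight tyrosine phosphatase gene, rose by 0.90 ± 0.073 and Socs1, a feedback inhibitor of cytokine receptors, by 0.55 ± 0.11. Ptpn12, encoding the phosphatase PTP-PEST, fell by 0.81 ± 0.067 and Errfi1, an inhibitor of EGF receptors, by 0.48 ± 0.061. Ptprj, named after its value was seen, encodes a receptor-type phosphatase that acts on the beta receptor. It had 1, 0 and 1 count in knockout replicates 1, 2 and 3, and 82, 77 and 83 counts in WT replicates 1, 2 and 3. The ratio of knockout to WT was 0.00779, with a 95% counting interval from 9.38e-04 to 0.0284.

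Relatives of the PDGF and VEGF family counted 5 rises and 3 falls among 9 (median log2 fold change 0.50). Flt1, a VEGF receptor gene, rose to 21.5 ± 2.77 CPM in knockout, against 6.23 ± 0.478 CPM in WT, and the ligand genes Vegfd and Vegfb rose by 0.52 ± 0.072 and 0.50 ± 0.080 on the log2 scale. Vegfa stood at 244 ± 6.27 CPM in knockout and 472 ± 15.9 CPM in WT (-0.95 ± 0.056). Kit, a receptor gene related to Pdgfra, had 0 counts in knockout and 1 in WT.

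Genes that PDGF is known to induce in fibroblasts counted 8 rises and 7 falls among 23 (median log2 fold change -0.09; 9 and 12 without knockout replicate 2). The zinc-finger genes Egr2, Klf10 and Egr1 fell by 1.86 ± 0.13, 0.89 ± 0.067 and 0.83 ± 0.055 on the log2 scale, and Nr4a1, which encodes a nuclear receptor, rose by 1.11 ± 0.067. The chemokine genes Ccl2 and Ccl7, named after their values were seen, had adjusted p of 0.332 and 0.487 (edgeR).

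A list of 17 tested transcription factor genes, several of them known to act on PDGF genes, counted 4 rises and 6 falls (median log2 fold change -0.07; 6 and 7 without knockout replicate 2). The repressor gene Hic1 rose to 43.5 ± 2.59 CPM in knockout, against 10.4 ± 0.630 CPM in WT. Klf5, Gli2 and Zeb1 fell by 1.51 ± 0.12, 1.19 ± 0.11 and 0.91 ± 0.13. Srf, which encodes serum response factor and was named because of the CArG box above, was at 56.5 ± 0.213 CPM in knockout and 47.4 ± 2.10 CPM in WT (0.25 ± 0.058, adjusted p = 0.00476, edgeR). The median size of log2 fold change over all genes tested was 0.32. The part of Srf in the Pdgfc change was not tested.

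Markers of fibroblasts were abundant in all libraries. The 12 fibroblast markers summed to 21075 to 23856 CPM in knockout and 26879 to 27419 CPM in WT, with 6 rises and 4 falls among 11 tested. The rises were in Col1a1, Col1a2, Col5a1, Vim, Thy1 and Lum, and the falls in Fn1, Col3a1, Col6a1 and Dcn. Fn1, encoding fibronectin, was the most abundant of these markers in every library. It stood at 9196 ± 1951 CPM in knockout and 13984 ± 262 CPM in WT (SD, n = 3 each). In knockout replicates 1, 2 and 3 it was at 10219, 6946 and 10422 CPM. The median log2 fold change of the list was 0.50. Those of pericytes and smooth muscle, cells that also carry PDGF receptors, summed to 307 to 344 CPM in knockout and 316 to 342 CPM in WT (10 of 11 listed, 2 rises and 0 falls among 5 tested). The 7 endothelial markers summed to 4.61 to 7.19 CPM in knockout and 2.30 to 2.88 CPM in WT, with Cdh5 called higher. The 6 leukocyte markers listed of 7 summed to 6.14 to 7.74 CPM in knockout and 4.33 to 4.88 CPM in WT, with Cd68 and Csf1r called higher, and the 5 epithelial markers listed of 7 to 4.67 to 5.88 CPM in knockout and 2.04 to 2.53 CPM in WT, with Krt8 called higher. The 5 platelet markers summed to 12.5 to 14.0 CPM in knockout and 11.3 to 11.7 CPM in WT, with 0 called. The 4 glial markers listed of 6 summed to 1.91 to 2.66 CPM in knockout and 6.59 to 6.71 CPM in WT, and the 6 adipocyte markers to 0.507 to 2.29 CPM in knockout and 2.76 to 4.56 CPM in WT, with Pi16 called lower. No marker in the tables was at 0 in all 6 libraries, and the part of these cell types in the PDGF results was not tested.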

How the data were processed

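Per the labels' protocols, total RNA was extracted with TRIzol and made into stranded mRNA libraries. The tools named are HISAT2, HTSeq, Cufflinks, DESeq and Trimmomatic, and the build is GRCm39, per the submitters' processing notes. Their versions, the annotation and the strand setting are not stated there, so reads of overlapping antisense genes may not be separated. The authors deposited raw read counts per gene and FPKM values, and 0 columns belonged to other samples. Groups and replicate numbers came from the sample titles.

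Counts were filtered with edgeR's filterByExpr, given TMM scaling factors and compared, knockout over wild type, by the quasi-likelihood test of edgeR 4.0.16 under R 4.3.3, with Benjamini-Hochberg adjustment over all genes tested. Standard errors were derived as the absolute log2 fold change over the root of the F statistic. Alternatives were other scalings, no filter, DESeq2 1.42.0, limma 3.58.1 on log2(FPKM + 1) and log2(FPKM + 0.1), a replicate block and each library left out. Scripts were tested on simulated data. Sums, shares and ratios of FPKM were compared by two-sided exact permutation tests.

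The members and lists were chosen with earlier results of these data known. Named from each pathway list were up to 4 called genes with the largest changes, a mean of at least 5 CPM and no overlap between groups. Some genes named outside this rule are marked where they appear. Kit, the cell type markers, the targeted gene and genes next to members on the chromosome were also named outside it. For each member with at least 5 CPM, the 2 genes of most similar profile were named. Some genes that these rules select are not reported here. Promoter sequences came from RefSeq on GRCm38.p6, a build other than the authors'. Windows of members on chromosome 18, where Pdgfrb lies, were not taken by rule. Windows of 4 of the 7 genes were kept, and that of Pdgfd is not shown. Genes were matched to the RefSeq order by gene number for 99.7% of those tested.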

Additional observations from a re-analysis of the deposited data

How the results depend on the processing

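Pdgfc kept its direction and its call in all 14 alternatives (log2 fold change 0.97 to 1.08), and Pdgfra was not called in any (-0.19 to -0.03). Pdgfa, between -0.20 and -0.026 over the libraries left out, was called in a single alternative, without knockout replicate 2 (-0.20). The Pdgfrb call was lost with no filter on low counts (-0.19, adjusted p = 0.0513, edgeR), with a replicate block (-0.20, adjusted p = 0.0741) and in 4 of 6 fits that left out a library (-0.22 without knockout replicate 1 and -0.20, -0.19 and -0.20 without WT replicates 1, 2 and 3). All 6 such fits ran from -0.24 to -0.12, and those at either end kept the call. The Pdgfrl call was lost with upper-quartile scaling (-0.31, adjusted p = 0.0512) and in 5 of 6 fits that left out a library (-0.35 to -0.22), but kept at -0.41 without knockout replicate 2. PDGF genes called higher numbered 1, but 2 with no filter, which adds Pdgfb. Those called lower numbered 2, but 1 with upper-quartile scaling, with no filter and with the replicate block, and between 0 and 3 with a library left out. The cause was not tested. The share of Pdgfc among ligand transcripts was 11.9 percentage points higher in knockout per length and 16.3 points higher in CPM, which is not per length, and 11.3 to 12.6 points with a library left out.

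No label says that replicate numbers pair the libraries. Deviations of same-numbered libraries correlated at -0.07, -0.09 and 0.02, and the replicate block called 6692 genes against 7136 without it. With so few libraries per group, these values cannot decide whether the libraries were paired. Each fit that left out a library rests on 2 libraries in a group, and knockout replicate 2 moved the count of called genes most, to 8586 without it. Pdgfb, with 0 to 15 counts a library, is limited by depth.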
